A study of Mus musculus with 6 samples.

Results

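Transcripts of 10 genes linked to neutrophils were followed in mouse gastrocnemius muscle, namely the antiprotease gene Slpi and S100a8, S100a9, Lcn2, Ly6g, Csf3r, Mpo, Elane, Ngp and Camp. They were taken by their symbols from a table of 49315 genes, and all 10 were found once. Male C57BL6J mice received intramuscular AAV9, an adeno-associated virus serotype that enters muscle, at 5 months of age, and RNA was taken 5 months later. The vector of 3 muscles was AAV9-HSA-CAAHR (replicates 31, 34 and 36), which encodes a mouse aryl hydrocarbon receptor (AHR) that lacks its ligand-binding domain and is therefore always on. The vector of the other 3 was AAV9-HSA-GFP (replicates 42, 43 and 46), which encodes the fluorescent protein ZsGreen1. In both vectors expression came from the HSA promoter of the human ACTA1 gene, which works in muscle fibres and not in leukocytes. Every muscle held a virus and an injection, so each value below is a difference between vectors, and uninjected muscle was not analysed here. Library totals ranged from 43432994 to 58825752 counts, and the AHR pathway list behaved as labelled, with 6 of 6 genes called higher in AAV9-HSA-CAAHR muscles.

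Neutrophils are short-lived leukocytes that leave the blood for injured or infected tissue, and healthy muscle holds few of them. Their granule proteins are made in a fixed sequence in the bone marrow. Azurophil (primary) granule genes such as Mpo and Elane are read in promyelocytes, specific (secondary) granule genes such as Ngp, Camp and Lcn2 are read slightly later, and both are largely silent in mature cells. S100a8 and S100a9 transcripts stay abundant in mature neutrophils and are also made by monocytes. Slpi and Lcn2 are also made by epithelia and other tissue cells, so neither marks neutrophils alone.

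The 250 bases before the RefSeq start site are shown for Slpi, the gene with the greatest difference of the 10, and for S100a9, the most abundant of the others per length. On the minus strand the GENCODE S100a9 gene starts at 90695721, next to its window. The GENCODE Slpi gene starts at 164389095, far upstream of the window shown. Capitals mark matches on either strand to 4 motifs, GCGTG (core of the AHR response element), an NF-kappaB type motif (GGG and CC with 5 bases of any kind between), TTGCNNAA (C/EBP type) or GAGGAA (PU.1 type), where N is any base.
Slpi, chr2:164356508-164356757, minus strand, GRCm38: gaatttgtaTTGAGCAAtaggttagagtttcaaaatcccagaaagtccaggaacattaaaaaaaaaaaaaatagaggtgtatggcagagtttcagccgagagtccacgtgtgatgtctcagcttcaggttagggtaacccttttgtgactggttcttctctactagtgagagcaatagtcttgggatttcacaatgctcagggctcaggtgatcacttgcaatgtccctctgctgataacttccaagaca
S100a9, chr3:90695722-90695971, minus strand, GRCm38: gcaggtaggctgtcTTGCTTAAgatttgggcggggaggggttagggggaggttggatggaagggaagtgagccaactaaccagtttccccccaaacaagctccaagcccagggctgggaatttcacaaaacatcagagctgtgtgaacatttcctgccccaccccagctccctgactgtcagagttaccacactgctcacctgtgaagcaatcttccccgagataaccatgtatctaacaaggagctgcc
Each of these stretches held a single match, to TTGCNNAA, lying 241 bases before the Slpi start and 236 bases before the S100a9 start. RefSeq listed 11 start sites for the 10 genes, as Ly6g had 2 overlapping windows. GCGTG was in 0 of the 11 windows, against 28.2% of all 32851 windows of this length. TTGCNNAA was in 5 of 11 against 9.56%, GAGGAA in 7 of 11 against 23.3%, and the NF-kappaB type motif in 5 of 11 against 45.8%. In Ly6g the last 2 motifs shared bases, so they are not separate matches there. These are letter matches within short windows and say nothing about binding.

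Slpi (ENSMUSG00000017002, GRCm38 chromosome 2, 164354070 to 164389095, minus strand) encodes secretory leukocyte protease inhibitor, a WAP-domain protein that blocks neutrophil elastase. Its counts were 14, 11 and 11 in AAV9-HSA-CAAHR replicates 31, 34 and 36, and 353, 836 and 764 in AAV9-HSA-GFP replicates 42, 43 and 46. As CPM (counts per 1000000 counts of a library, with library sizes scaled by TMM, a trimmed mean of the log ratios between libraries), these were 0.277, 0.192 and 0.180 in AAV9-HSA-CAAHR muscles and 7.31, 20.1 and 14.4 in AAV9-HSA-GFP muscles. The groups were far apart, with GFP replicate 43 highest and the 3 CAAHR libraries close together. The mean was 0.216 ± 0.0525 CPM (SD, n = 3) against 13.9 ± 6.40 CPM, 64.4-fold lower, and the log2 fold change was -6.01 ± 0.47 (SE, adjusted p = 0.000870 by edgeR's quasi-likelihood test with Benjamini-Hochberg adjustment). Slpi ranked 53 by p-value among 15847 tested genes. The study had picked Slpi as an immune gene from these same libraries, so its call is not independent evidence. By quantitative PCR, the paper reports, its selected immune genes were not lower in CAAHR muscles than in muscles of mice given no virus. The paper reads this as a local immune response to the GFP vector, which was not tested here. The libraries are of whole muscle, in which fewer cells of a type and less RNA per cell cannot be told apart.

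**Figure D1:**
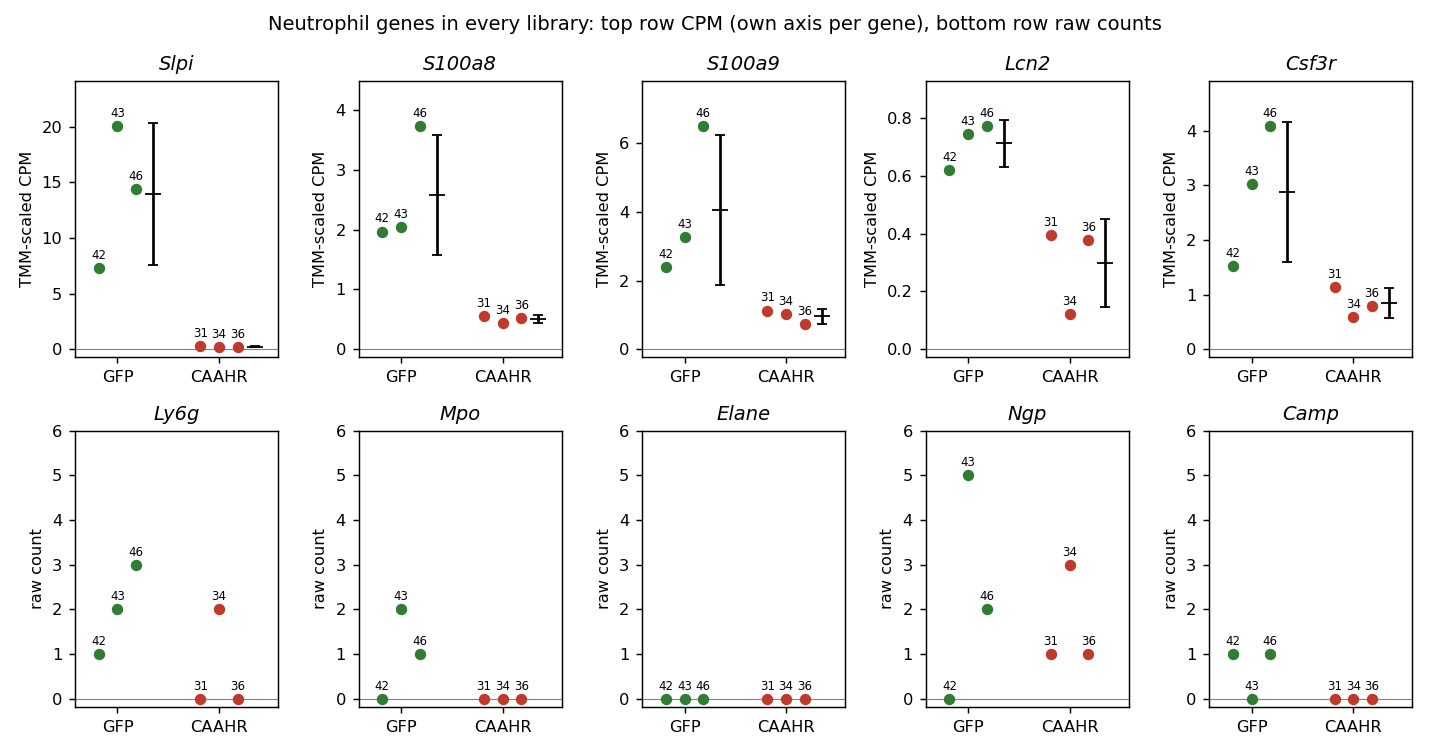
Level of each of the 10 genes in every library, with GFP (green) and CAAHR (red) points labelled by replicate. The top row gives TMM-scaled CPM on linear axes that start at 0 and differ between genes, with the mean and SD (n = 3) beside the points, and no gene's groups overlap there. The bottom row gives raw counts of the 5 genes that did not pass the filter on low counts, none of which exceeds 5 counts in a library.

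S100a8 (chromosome 3, 90668978 to 90670035) and S100a9 (chromosome 3, 90692632 to 90695721) encode the calcium-binding subunits of calprotectin, which together make up much of the neutrophil cytosol. S100a8 was at 0.553, 0.437 and 0.525 CPM in CAAHR replicates 31, 34 and 36, and at 1.97, 2.04 and 3.74 CPM in GFP replicates 42, 43 and 46. The groups did not overlap, and GFP replicate 46 was well above the other 2 of its group. S100a8 was 5.11-fold lower in CAAHR than in GFP muscles by group means, with a log2 fold change of -2.35 ± 0.31 (adjusted p = 0.00248, edgeR with Benjamini-Hochberg adjustment). S100a9 was at 1.13, 1.01 and 0.721 CPM against 2.38, 3.27 and 6.51 CPM in the same order of libraries. Again GFP replicate 46 was highest and the groups were separate. S100a9 was 4.25-fold lower in CAAHR muscles, with a log2 fold change of -2.09 ± 0.38 (adjusted p = 0.0159, edgeR with Benjamini-Hochberg adjustment). Its call was lost without CAAHR replicate 31 (adjusted p = 0.0543) or without CAAHR replicate 36 (adjusted p = 0.0782, edgeR).

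Csf3r (chromosome 4, 126024550 to 126044440) encodes the receptor for granulocyte colony-stimulating factor, which drives neutrophil production and survival. It was at 1.15, 0.595 and 0.787 CPM in CAAHR replicates 31, 34 and 36 and at 1.53, 3.03 and 4.10 CPM in GFP replicates 42, 43 and 46. The groups were separate by a narrow margin, between CAAHR replicate 31 and GFP replicate 42. Csf3r was 3.42-fold lower in CAAHR muscles, with a log2 fold change of -1.78 ± 0.38 (adjusted p = 0.0274, edgeR with Benjamini-Hochberg adjustment). The call was lost without CAAHR replicate 36 (adjusted p = 0.112), GFP replicate 43 (0.0786) or GFP replicate 46 (0.0940) in edgeR, and with limma-voom (0.0588).

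Lcn2 (chromosome 2, 32384633 to 32388252) encodes lipocalin-2, a specific granule protein that withholds iron from bacteria. Its counts were 20, 7 and 23 in CAAHR replicates 31, 34 and 36 and 30, 31 and 41 in GFP replicates 42, 43 and 46. CAAHR replicate 34 stood below the other libraries, and the groups did not overlap at 0.298 ± 0.153 CPM against 0.713 ± 0.0809 CPM (SD, n = 3). The log2 fold change was -1.26 ± 0.42 with a 95% interval from -2.21 to -0.30, and it did not pass over all genes (adjusted p = 0.105, edgeR with Benjamini-Hochberg adjustment). Without a filter on low counts it passed (adjusted p = 0.0412, edgeR).

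The genes held by convention to be most restricted to the neutrophil lineage were at or near 0 in both groups. Elane, neutrophil elastase, had 0 counts in 6 of 6 libraries, which allows at most 0.0492 to 0.0721 CPM per library (3 counts). Mpo, the myeloperoxidase of azurophil granules, had 0 counts in each CAAHR library and 0, 2 and 1 in GFP replicates 42, 43 and 46. Camp, the cathelicidin precursor, had 0 in each CAAHR library and 1, 0 and 1 in the GFP libraries. Ngp, neutrophilic granule protein, had 1, 3 and 1 counts in CAAHR replicates 31, 34 and 36 and 0, 5 and 2 in GFP replicates 42, 43 and 46. Ly6g, the surface antigen used to identify mouse neutrophils, had 0, 2 and 0 against 1, 2 and 3. The groups overlapped for all 5, with exact two-sided permutation p-values from 0.2 (Ly6g) to 1 (Elane), where 3 against 3 libraries cannot give less than 0.1. A difference in these 5 transcripts was not detectable at this depth. The counts of this set thus came almost wholly from Slpi, S100a8, S100a9, Lcn2 and Csf3r, which other cells can also carry. Mpo, Elane, Ngp, Camp and Ly6g were at 5 counts or fewer in every library, and all but Ly6g are largely silent in mature neutrophils. Outside this set, Retnlg, a gene of mature neutrophils, had 38, 34 and 81 counts in GFP replicates 42, 43 and 46 and 10 in each CAAHR library. Retnlg passed the filter only through the GFP libraries. Listed surface genes differed in level. Cxcr1 had at most 2 counts in a library and Fpr1 at most 4, while Cxcr2 had 17, 25 and 55 counts in the GFP libraries and 14, 4 and 15 in the CAAHR libraries. Cxcr1, Fpr1 and Cxcr2 were named after their values were seen. The cell source of the counts was not tested. Ly6g belongs to a family of similar genes, and 512 exon bases of Mpo lie opposite the antisense gene Gm11505, so both counts are uncertain as the strand setting was not stated.

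Of the 10 genes, 5 passed the filter, and 4 of these were called lower in AAV9-HSA-CAAHR muscles, where 4.57% of all tested genes were called lower and 7.6% in either direction. All 4 also had a log2 fold change under -1, where 2.51% of all tested genes were called lower by that much. None of the 5 was called higher, where 3.04% of all tested genes were. In all 5 the CAAHR libraries lay below the GFP libraries, as in 14.9% of all tested genes, and 15% lay above. Slpi and Lcn2 passed the filter only through the GFP libraries, with 1 and 2 CAAHR libraries at its level, so a lower CAAHR level was partly built into their being tested. S100a8, S100a9 and Csf3r passed in all 6 libraries, and all 3 were called. With at least 10 counts required in every library, Slpi, S100a8, S100a9 and Csf3r were tested and all 4 were called, of 7.14% of genes called in that setting. The median log2 fold change was -2.09 over the 5 tested genes and 0.01 over all tested genes.

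Adjusted for exon length, the order of the genes differed between the groups. In AAV9-HSA-GFP muscles Slpi was highest at 11.8 ± 5.42 CPM per kilobase (SD, n = 3), followed by S100a9 at 7.76 ± 4.16, S100a8 at 3.72 ± 1.44, Csf3r at 0.799 ± 0.357 and Lcn2 at 0.272 ± 0.0308. The ranges of Slpi and S100a9 overlapped there, and Slpi was the higher in 2 of 3 libraries, so these neighbours did not differ beyond their spread. The ranges of S100a9 and S100a8 overlapped too, but within a library S100a9 was the higher in 3 of 3. In AAV9-HSA-CAAHR muscles S100a9 was highest at 1.83 ± 0.401 CPM per kilobase, followed by S100a8 at 0.728 ± 0.0871, Csf3r at 0.234 ± 0.0776, Slpi at 0.183 ± 0.0445 and Lcn2 at 0.114 ± 0.0582. Only Csf3r and Slpi overlapped as neighbours in that order, with Csf3r the higher in 3 of 3 libraries. Slpi made up 52.8%, 68.4% and 48.6% of the summed CPM of the 10 genes, not adjusted for length, in GFP replicates 42, 43 and 46, and 7.87%, 7.86% and 6.92% in CAAHR replicates 31, 34 and 36.

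The same difference can be put as the log2 ratio of Slpi to each of the other 4 tested genes within a library, from CPM + 0.1. Slpi was singled out because the study had picked it and it differed most of the 10, and Slpi and Lcn2 passed the filter only through the GFP libraries, so these ratios are a description with no test. The ratio of Slpi to S100a8 was -0.79, -0.88 and -1.16 in CAAHR replicates 31, 34 and 36 and 1.84, 3.24 and 1.92 in GFP replicates 42, 43 and 46. The ratio was below 0 in each CAAHR library and above 0 in each GFP library, a difference in the mean ratio of -3.28. The difference was -3.49 relative to S100a9, -3.77 relative to Csf3r and -4.25 relative to Lcn2. The remaining 4 tested genes summed to 3.22, 2.17 and 2.41 CPM in the CAAHR libraries and 6.5, 9.08 and 15.1 CPM in the GFP libraries.

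**Figure D2:**
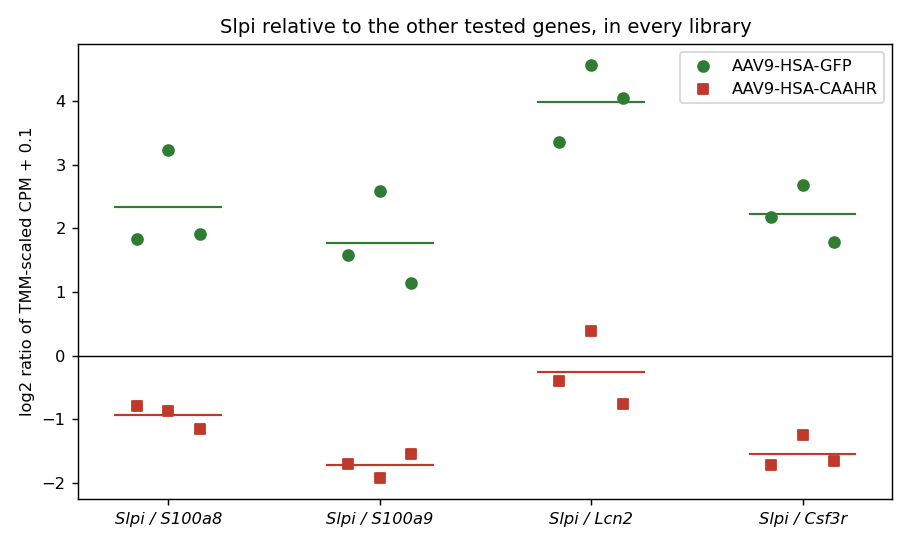
Log2 ratio of Slpi to S100a8, S100a9, Lcn2 and Csf3r in each library, from TMM-scaled CPM + 0.1, with GFP as green circles, CAAHR as red squares (replicates 42, 43, 46 and 31, 34, 36 from left to right) and group means as lines. In all 4 ratios the GFP points lie above the CAAHR points, by 3.28 to 4.25 between means, and GFP replicate 43 is highest.

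The GFP libraries were ordered differently by different genes. Slpi was highest in GFP replicate 43, whereas S100a8, S100a9, Csf3r and Lcn2 were highest in GFP replicate 46. Replicate 42 was lowest for each of the 5. Between the lowest and the highest GFP library, Slpi went from 7.31 to 20.1 CPM and S100a9 from 2.38 to 6.51 CPM. Relative to its mean, the SD among GFP libraries was 45.9% for Slpi, 53.6% for S100a9, 44.6% for Csf3r, 38.8% for S100a8 and 11.3% for Lcn2. Among CAAHR libraries it was 24.2% for Slpi, 21.9% for S100a9, 33.2% for Csf3r, 12% for S100a8 and 51.1% for Lcn2.

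Other genes of neutrophil granules and the neutrophil surface were examined from a list of 44, of which 23 were tested. All 23 had a log2 fold change below 0, as did 48.8% of all tested genes, and 10 (43.5%) were called lower in AAV9-HSA-CAAHR muscles, as were 4.57% of all tested genes. The median was -1.45. Of the 23, 10 had fewer than 3 CAAHR libraries at the filter's level, so a lower CAAHR level was partly built into their being tested. Among these 10, Clec4e and Siglece passed with 2 GFP libraries and 1 CAAHR library, and the rest through the GFP libraries alone. Of the 13 that passed in both groups, 6 were called.

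Of the 6 genes listed with azurophil granules, 1 was tested, Serpinb1a, whose product is not a granule protein. No azurophil granule gene was thus tested. Serpinb1a, an elastase inhibitor of the neutrophil cytosol, was at 2.64 ± 0.626 against 3.03 ± 0.603 CPM and was not called (log2 fold change -0.20, adjusted p = 0.667, edgeR with Benjamini-Hochberg adjustment). Ctsg and Ms4a3 had 0 counts in every library. Of the 18 specific and gelatinase granule genes, 8 were tested and 3 called lower, against 4.57% of all tested genes. Retnlg, a resistin-like gene of mature neutrophils, was at 0.198, 0.175 and 0.164 CPM in CAAHR replicates 31, 34 and 36 and at 0.787, 0.817 and 1.53 CPM in GFP replicates 42, 43 and 46. Its log2 fold change was -2.54 ± 0.39. The collagenase gene Mmp8 (-1.95 ± 0.41) and the gelatinase gene Mmp9 (-1.71 ± 0.29) were the other two. Retnlg and Mmp8 passed the filter only through the GFP libraries, Mmp9 in both groups. Ltf, the lactoferrin of specific granules, was not tested, with 0 counts in each CAAHR library and 5, 22 and 19 in GFP replicates 42, 43 and 46. It was at least 6.15-fold lower, counting 3 counts per CAAHR library as the floor. Hp, haptoglobin, was at 50.2 CPM in GFP replicate 42, 11.6 in replicate 43 and 24.7 in replicate 46, and did not pass (adjusted p = 0.150, edgeR). Serpinb1a, Hp and Ltf were named after their values were seen.

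Of the 20 surface genes, 14 were tested and 7 called lower, against 4.57% of all tested genes. By smallest p the called genes were Pirb, Selplg, Itgb2, Csf2rb, Clec4d and C5ar1, with Il1r2 as the seventh. Pirb, an inhibitory receptor of myeloid cells, was at 0.395, 0.297 and 0.476 CPM in CAAHR replicates 31, 34 and 36 and at 1.2, 3.03 and 1.49 CPM in GFP replicates 42, 43 and 46, a log2 fold change of -2.27 ± 0.40. Selplg, the ligand by which leukocytes roll on selectins, changed by -2.01 ± 0.38 on that scale, and Itgb2, the integrin beta chain of leukocytes, by -1.79 ± 0.37. Csf2rb, a shared receptor chain for myeloid growth factors, changed by -1.10 ± 0.24, Clec4d, a C-type lectin receptor, by -2.64 ± 0.60, and C5ar1, the receptor for complement C5a, by -1.25 ± 0.29. Il1r2, the decoy receptor for interleukin-1, changed by -1.43 ± 0.36. Clec4d and Il1r2 passed the filter only through the GFP libraries. For 12 of the 14 tested genes the groups did not overlap, with the CAAHR libraries lower, where 14.9% of all tested genes did so. Pirb has close relatives in its gene family, so its counts carry some uncertainty.

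**Figure D3:**
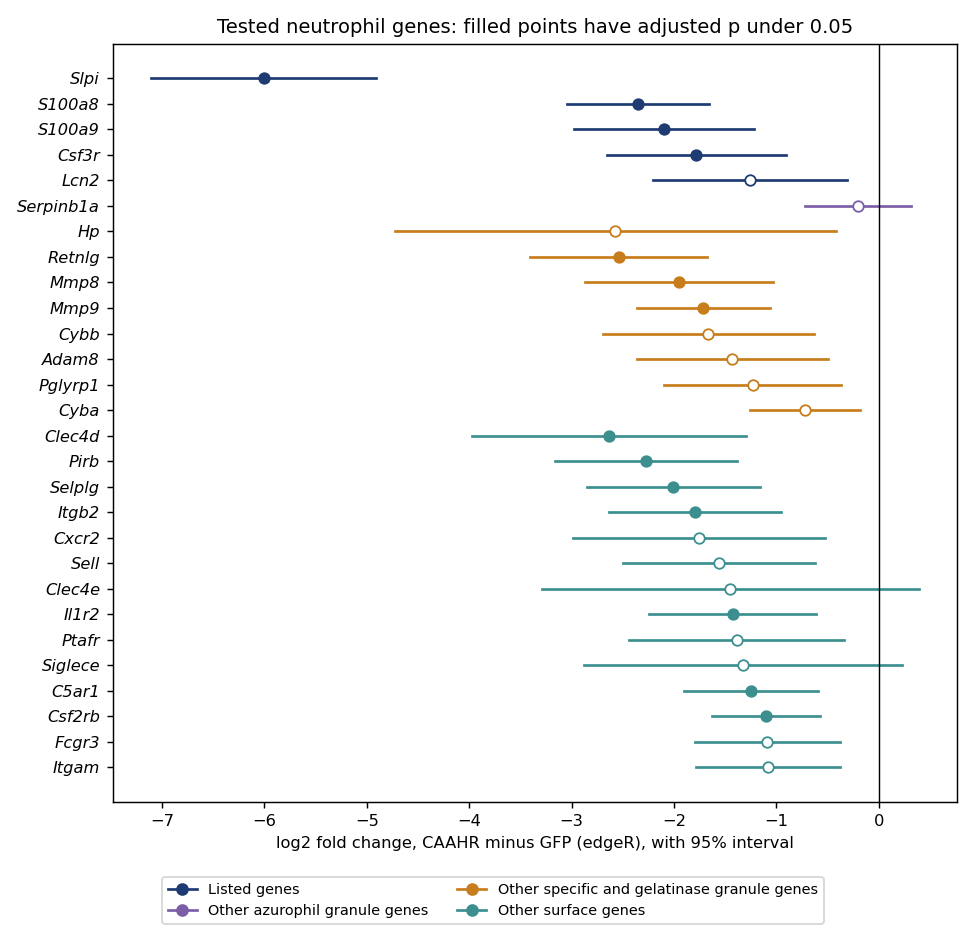
Log2 fold change (CAAHR minus GFP, edgeR) with its 95% interval for the 5 tested genes of the 10 and the 23 other tested neutrophil genes, grouped by list. Serpinb1a, shown under azurophil granule genes, encodes a cytosolic protein. Filled points passed the threshold (adjusted p under 0.05). All points are below 0, and Slpi at -6.01 lies apart from the rest, whose estimates run from -2.64 to -0.20.

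Signals that raise or attract neutrophils were listed as 16 genes. Of the 9 tested, 8 were called lower, against 4.57% of all tested genes. Cxcl2, a chemokine that binds the neutrophil receptor CXCR2, was at 0, 0.0525 and 0.0984 CPM in CAAHR replicates 31, 34 and 36 and at 0.808, 1.66 and 2.13 CPM in GFP replicates 42, 43 and 46, a log2 fold change of -4.80 ± 0.66. Cxcl1, which binds the same receptor, changed by -4.49 ± 0.58, the cytokine gene Il6 by -3.45 ± 0.40 and Il1b by -3.03 ± 0.48. Sele, the endothelial selectin on which leukocytes roll, had at most 2 counts in a CAAHR library against 17 to 28 in the GFP libraries. Vcam1, an endothelial adhesion gene, changed by -1.08 ± 0.20. The growth factor gene Csf3, whose product binds the Csf3r receptor, had from 0 to 3 counts in every library. Lif did not pass (adjusted p = 0.0554, edgeR with Benjamini-Hochberg adjustment). Il1b and Sele had been chosen by the study from these libraries, so their calls are not independent evidence. Cxcl1, Cxcl2, Il6 and Sele passed the filter only through the GFP libraries.

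Of 6 transcription factor genes of the granulocyte lineage, 4 were tested and 2 were called lower, against 4.57% of all tested genes. Cebpa was at 2.72 ± 0.666 against 6.94 ± 1.88 CPM, a log2 fold change of -1.35 ± 0.25 (edgeR, adjusted p = 0.0136), and Spi1, which encodes PU.1, changed by -1.36 ± 0.31 (edgeR, adjusted p = 0.0296). Cebpa is also an adipocyte gene. Cebpb (-0.34 ± 0.21, adjusted p = 0.374, edgeR), whose groups overlapped, and Cebpd (-0.44 ± 0.13, adjusted p = 0.0742, edgeR) were not called. Cebpe and Gfi1, which act in granulocyte precursors, had at most 2 counts in any library.

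Relatives of the called genes were set beside them. Of 13 WAP-domain and antiprotease genes other than Slpi, 6 were tested and 2 were called lower, against 4.57% of all tested genes. The called genes were Wfdc1 (log2 fold change -0.86 ± 0.14) and Serpinb6a (-0.57 ± 0.12). Wfdc1, another WAP-domain gene, was at 29.9 ± 5.07 against 54.4 ± 6.67 CPM. Of 13 other S100 genes, 8 were tested and 0 were called by edgeR, with 0 at an unadjusted p under 0.05. Their log2 fold changes ran from -0.70 (S100b) to 0.23 (S100a1), and S100a6, a gene of many stromal cells, was at 16.7 ± 1.13 against 19.8 ± 4.61 CPM. Of 4 receptor genes for the secreted products of these genes, 3 were tested and 0 were called by edgeR, with 0 at an unadjusted p under 0.05. Tlr4, a receptor for calprotectin, was at 4.80, 0.962 and 2.48 CPM in CAAHR replicates 31, 34 and 36 and at 1.37, 0.985 and 1.30 CPM in GFP replicates 42, 43 and 46, so the groups overlapped. S100b, S100a1, S100a6 and Tlr4 were named after their values were seen.

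Markers of other cells were summed in the same libraries. The 14 macrophage and monocyte markers summed to 27.6 to 47.3 CPM in CAAHR libraries and 56.1 to 120 CPM in GFP libraries, and none was at 0. Of 13 tested, 1 was called lower (7.69%, against 4.57% of all tested genes), Ly6c2, which passed the filter only through the GFP libraries. All 13 had a log2 fold change below 0, with a median of -1.21. The 7 B and plasma cell markers summed to 9.61 to 19.3 against 127 to 432 CPM, of which most was Ighm, and 4 of 7 were called lower, against 4.57% of all tested genes. These were Ighm, Mzb1, Cd79b and Cd79a, of which Cd79a and Cd79b passed the filter only through the GFP libraries. Ighm too had been picked by the study from these libraries. Macrophage and B cell sums were highest in GFP replicate 43 and lowest, among GFP libraries, in replicate 42, the order in which Slpi also stood. The neutrophil surface sum had that order too, at 13.6, 27.4 and 19.3 CPM in GFP replicates 42, 43 and 46, as did the T and NK cell sum. The order was thus not particular to any of these cell types. The specific and gelatinase granule sum, largely Hp in replicate 42, was instead highest there. T and NK cell markers summed to 1.0 to 1.54 against 1.99 to 6.87 CPM, and 1 of 7 was tested and not called. The part of these cells in the result was not tested.

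Epithelial markers, which bear on Slpi, summed to 0.927 to 1.28 CPM in CAAHR libraries and to 12.7, 1.51 and 1.98 CPM in GFP replicates 42, 43 and 46. Krt5 was at 0 in every library, and most of the sum in GFP replicate 42 was Krt18 (8.72 CPM) and Krt8 (2.59 CPM). Slpi was lowest of its group in GFP replicate 42, at 7.31 CPM. The larger log2 fold change of Slpi without that library, -6.32, was thus built in and says nothing about its source. The part of epithelial cells in the Slpi difference was not tested. Adipocyte markers overlapped as a sum, at 84.6 to 129 against 85.5 to 185 CPM, but most of the sum was Fabp4, at a log2 fold change of -0.03. The other 4 markers, set apart after their values were seen, summed to 1.89 to 11.2 against 12.9 to 52.8 CPM, without overlap. All 5 had a log2 fold change below 0, with a median of -2.09. Of the 5, 2 (Plin1 and Retn) were called lower, against 4.57% of all tested genes. Retn passed the filter only through the GFP libraries. The part of adipocytes in the result was not tested. Fibroblast, endothelial and erythroid or platelet sums overlapped between the groups, with 0 genes called by edgeR in each of these lists and 0, 0 and 2 at an unadjusted p under 0.05. Erythroid and platelet sums were 219.7, 105.5 and 229.4 CPM in CAAHR replicates 31, 34 and 36 and 104.0, 138.6 and 190.2 CPM in GFP replicates 42, 43 and 46, without separation of the groups. The 10 muscle fibre genes summed to 137919 to 172656 CPM in CAAHR libraries and 207446 to 207847 CPM in GFP libraries, without overlap. Of the 10, 4 were called lower, against 4.57% of all tested genes, and 0 were called higher. The list was split in direction, with 6 log2 fold changes below 0 and 4 above. Myh7, named after its values were seen, was at 3.44 ± 0.78 without overlap of the groups (adjusted p = 0.0691, edgeR). The part of these 10 genes in the result was not tested.

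**Figure D4:**
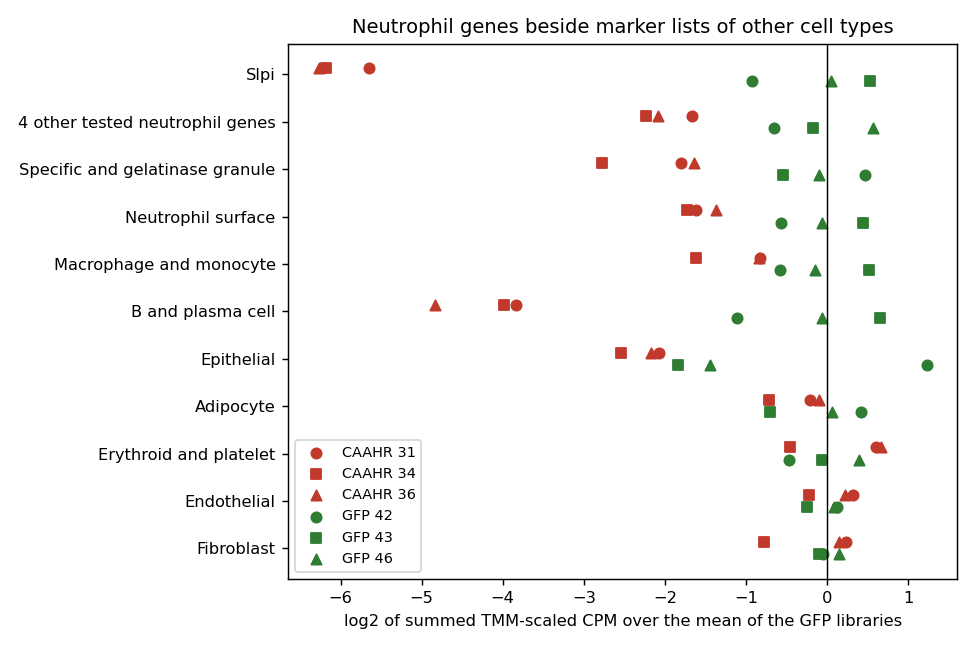
Log2 of the summed TMM-scaled CPM of each marker list in each library over the mean of the 3 GFP libraries, with Slpi and the other 4 tested genes on top (replicates 31 and 42 as circles, 34 and 43 as squares, 36 and 46 as triangles). The CAAHR points of the neutrophil, macrophage and B cell lists lie to the left of the GFP points, while those of the erythroid and platelet, endothelial and fibroblast lists overlap them, as do those of the adipocyte list, which is mostly Fabp4. Much of the specific and gelatinase granule row is Hp, which was not called. In GFP replicates 42, 43 and 46 Hp made 50.2, 11.6 and 24.7 CPM of sums of 60.7, 30.0 and 41.0 CPM.

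The 5 genes outside the 10 whose log2 CPM was most like that of Slpi over the 6 libraries were Malsu1, Tox, Ifit3b, Igkv4-55 and Nxn, with Pearson's r from 0.996 to 0.999. All 6 points share the difference between groups, so r is a description. Tox was at 0.198, 0.192 and 0.180 CPM in CAAHR replicates 31, 34 and 36 and at 0.497, 0.624 and 0.566 CPM in GFP replicates 42, 43 and 46. The immunoglobulin segment Igkv4-55 had 0 CPM in each CAAHR library and 1.14, 2.45 and 1.87 CPM in the GFP libraries. Ifit3b, an interferon-induced gene, was at 2.10, 1.91 and 1.89 against 4.91, 5.98 and 5.34 CPM. Each of the 5 was highest in GFP replicate 43 and lowest of that group in replicate 42, an order that picking them by r largely builds in. Apart from Igkv4-55, which was at 0 in one group, the log2 fold changes were -0.33 for Malsu1, -0.69 for Nxn, -1.46 for Ifit3b and -1.55 for Tox.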

How the data were processed

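Poly(A)-selected RNA of 6 gastrocnemius muscles was sequenced as paired 150-base reads. The authors deposited raw counts of reads for each gene, made with Trimmomatic 0.36, STAR 2.5.2b on GRCm38 and featureCounts on uniquely placed reads in exons, without normalisation or pooling. Whether strand was used was not given in the sources used here. Positions and exon lengths came from GENCODE M21 (GRCm38), which held 99.47% of the identifiers, and promoter sequences from RefSeq (GRCm38.p6), which held all 10 genes.

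Counts were compared in R 4.3.3 with edgeR 4.0.16 (filterByExpr, TMM scaling, robust quasi-likelihood test, Benjamini-Hochberg adjustment over 15847 genes, threshold 0.05). The filter kept genes at 10 counts or more in a library of median size (0.193 CPM) in 3 libraries. Standard errors came from the F statistic. DESeq2, the package the authors used (here version 1.42.0), and limma 3.58.1 (voom with sample weights) were alternatives, with other scalings, filters and libraries left out. Floors of 3 counts cover counting error only. The labels name no litter or batch, so p-values measure the spread between these muscles. Pairs of libraries within a group differed by at least 21.6 in chi-square per degree of freedom, so none was a repeat. The fit was tested on simulated data for this comparison (15609 genes), where 91% of 100 genes changed 4-fold and 64% of 100 changed 2-fold were called, and 5.49% of calls were unchanged genes.

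The genes and lists were chosen with earlier results of these data known. Named by rule were the 10 genes, up to 6 called genes of each other list by smallest p, and the 5 genes most like Slpi. Other genes were named outside that rule. Among them were Lif, Csf3, Ctsg, Ms4a3, Cebpb, Cebpd, Cebpe, Gfi1, Fabp4, Mcpt4, Cma1, Epx and Prg2, none of which was called.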

Additional observations from a re-analysis of the deposited data

How the results depend on the processing

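No paired analysis was possible because replicate numbers differ between the vectors. Slpi and S100a8 were called under every one of the 14 alternatives run, and no log2 fold change of the 5 tested genes changed sign in any of 69 checks, of which 62 also kept their side of the threshold, 6 lost it (Csf3r 4, S100a9 2) and 1 gained it (Lcn2). Lcn2 was not tested with at least 10 counts in every library. The number of the 10 genes called, 4 as reported, lay between 2 and 4 when a single library was dropped, and the 2 left without CAAHR replicate 36 were Slpi and S100a8. The number of other neutrophil genes called, 10 as reported, was 22 of 39 tested without a filter on low counts and 18 with DESeq2, and lay between 3 (CAAHR replicate 31 dropped) and 10 when a single library was dropped, with 6 after dropping CAAHR replicate 36 or GFP replicate 46. The number of all genes called, 1205 as reported, was 2470 without a filter and 1923 with DESeq2, and lay between 535 (CAAHR replicate 36 dropped) and 1698 (CAAHR replicate 34 dropped). The cause was not tested.

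Of all calls, 60.1% were lower as reported, 73.4% with upper quartile scaling and 40.7% with library size only, while every call among the 10 and among the other neutrophil genes was lower under each. With a pseudocount of 1 the differences in log2 ratio of Slpi to S100a8, S100a9, Csf3r and Lcn2 were -2.30, -2.23, -2.49 and -3.11, and the groups stayed apart for all 4 genes. Of the 5 genes under the filter, Ly6g, Mpo, Ngp and Camp could be fitted by edgeR without one, and 0 were called (0 at an unadjusted p under 0.05). At these totals, genes such as Mpo, Elane and Camp, at 0 to 2 counts, lie below what this depth can compare.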

Other observations

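The list of 12 eosinophil, mast cell and basophil markers, of which 11 were in the table, summed to 2.59 to 2.68 CPM in AAV9-HSA-CAAHR libraries and to 4.66, 2.81 and 6.49 CPM in AAV9-HSA-GFP replicates 42, 43 and 46. Of the 5 tested genes 0 were called by edgeR, with 3 at an unadjusted p under 0.05. The chymase gene Mcpt4 was at 0.771, 0.437 and 0.689 against 1.06, 0.769 and 2.04 CPM, so its groups overlapped. Those of Cma1 did not (log2 fold change -1.32 ± 0.36, adjusted p = 0.0526, edgeR). The eosinophil genes Epx and Prg2 had at most 4 counts in any library. GFP replicate 46 was highest for this list as it was for S100a8, S100a9, Csf3r and Lcn2.

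The keratin gene Krt18 was at 8.72 CPM in GFP replicate 42 and between 0.230 and 0.887 CPM in the other 5 libraries, and Krt8 was at 2.59 CPM in GFP replicate 42 and at most 0.170 CPM elsewhere. Ppbp, a platelet chemokine gene, was at 1.57 CPM in CAAHR replicate 34 and between 0.352 and 0.672 CPM in the other libraries. These genes were named after their values were seen.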
